A study of Homo sapiens with 9 samples.

Results

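The ID proteins and the SMAD pathway are described here through 10 genes, namely ID1, ID2, ID3, ID4, SMAD3, SMAD4, SMAD6, SMAD7, TGFBR2 and BMPR2. They were picked out by gene name, and all 10 were found among the 58735 genes of the count table. RNA was sequenced from MIA PaCa-2 cells, an established human pancreatic cancer cell line, in 9 libraries. The cells carried no engineered change (genotype WT) and were treated for 24-h with 0.1% DMSO as the vehicle, with the TBK1–IKKε inhibitor compound 1 at 1 μM, or with the ERK1/2 inhibitor SCH772984 at 1 μM. There were 3 libraries per group, all from this single cell line and at a single dose and time. Nothing in the labels says that the libraries came from separate cultures, so p-values measure the spread between these libraries, which may be technical.

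ID proteins are helix-loop-helix proteins that lack a DNA-binding region. They pair with E proteins and keep them from binding DNA with tissue-specific partners, and they are widely used as readouts of BMP signaling. Ligands of the TGF-β and BMP families bind type II receptors such as TGFBR2 and BMPR2, which activate type I receptors, and these phosphorylate receptor-regulated SMADs that enter the nucleus with SMAD4. SMAD6 and SMAD7 are inhibitory SMADs that are induced by the pathway and dampen it.

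Library totals ranged from 9464432 to 13887859 counts, and libraries of the same group differed by more than counting noise. Compound 1 replicate 1 stood apart from the other libraries of its group, with a chi-square per degree of freedom of 11.1 and 8.29 against them, where they differed from each other by 2.78. The keratin and vimentin markers of the line were abundant, at a summed 5924 to 6297 CPM with DMSO, 5480 to 6554 CPM with compound 1 and 3155 to 3499 CPM with SCH772984, but the epithelial marker EPCAM had at most 3 counts and CDH1 at most 5 counts in any library. Of 9 tested genes known to depend on ERK output, 8 were lower with SCH772984, for example SPRY4 (log2 fold change -6.81 ± 0.114 SE), and 1, EPHA4, was higher (1.48 ± 0.061 SE), where 35.5% of all tested genes were lower. Of the same 9 genes, 0 passed with compound 1 (3 were lower at an unadjusted p under 0.05), where 0.864% of all tested genes passed and 7.69% were lower at an unadjusted p. There are no spike-ins, so changes are read against the average gene, and scaling by library size alone would shift that reference, the all-gene median on the log2 scale, up by 0.174 with SCH772984.

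Levels of different genes are compared per length, as FPKM (counts scaled for depth by TMM and for the length of the merged exons). With DMSO, ID1 was the most abundant member at 184 FPKM (mean of 3 libraries), followed by ID3 at 116 FPKM and ID2 at 24.1 FPKM. SMAD3 followed at 11.5 FPKM, SMAD4 at 4.80 FPKM, BMPR2 at 4.07 FPKM, SMAD6 at 1.10 FPKM and SMAD7 at 0.275 FPKM. No pair of neighbours in this order overlapped between libraries, and the order was the same with compound 1. With SCH772984 the order changed, since ID2 (127 FPKM) moved up beside ID3 (114 FPKM), with overlapping libraries, and SMAD6 (8.79 FPKM) moved above BMPR2 (7.62 FPKM) and SMAD4 (4.30 FPKM). ID4 and TGFBR2 were at the bottom of every group and could not be ordered.

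With SCH772984, 5 of the 8 members that could be tested were higher than with DMSO, 1 was lower and 2 did not pass (edgeR's quasi-likelihood test, Benjamini-Hochberg adjusted p under 0.05 over 13834 genes). The rises were largest for SMAD6, SMAD7 and ID2, which reached 5 to 8 times their DMSO level. Changes were common in this comparison, with 72.8% of all tested genes called, 37.2% higher and 35.5% lower. At a change of at least 2-fold, 3 of the 8 members and 18.2% of all tested genes were higher, and 0 members and 10.6% of all genes were lower. The libraries of the 2 groups did not overlap for 7 of the 8 members, 5 of them above and 2 below, against 74.2% of all tested genes (36.8% above and 37.4% below).

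**Figure D1:**
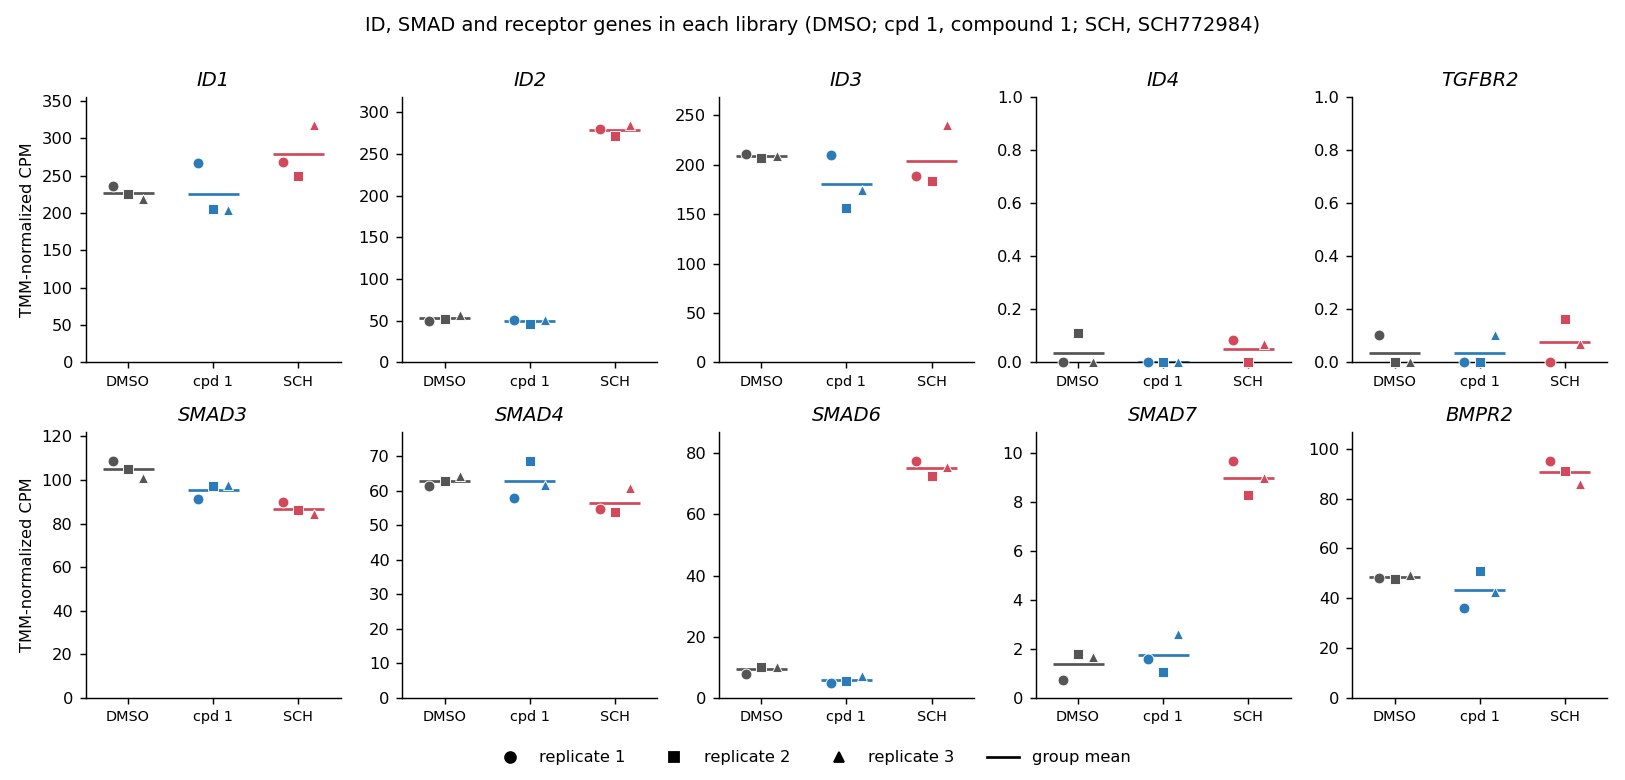
Each panel plots a member's TMM-normalized CPM (counts scaled to a common depth) on a linear axis from 0, with a point for each of the 3 libraries per group and a line at the group mean. The SCH772984 points of ID2, SMAD6, SMAD7 and BMPR2 lie far above all others, whereas ID4 and TGFBR2 lie near 0 throughout.

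ID2 was the ID gene that responded most strongly. Its level was 50.0, 52.2 and 57.0 CPM in the DMSO libraries, 51.3, 46.6 and 51.3 CPM with compound 1, and 280, 272 and 285 CPM with SCH772984. All SCH772984 libraries lay above all others, while the compound 1 and DMSO libraries overlapped. The rise with SCH772984 was 5.34-fold (log2 fold change 2.42 ± 0.070 SE, adjusted p = 6.13e-31). ID2 lies at chr2:8678845-8684453 on the plus strand (GRCh38, as for all positions here), and its exons overlap those of the antisense gene ID2-AS1, which had no more than 11 counts in any library.

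ID1 was the most abundant of the family and changed far less. Its level was 236, 225 and 219 CPM with DMSO, 266, 205 and 203 CPM with compound 1, and 268, 249 and 317 CPM with SCH772984. The SCH772984 libraries lay above the DMSO libraries, but SCH772984 replicate 2 lay below compound 1 replicate 1. The rise over DMSO was 1.25-fold (log2 fold change 0.32 ± 0.067 SE, adjusted p = 5.6e-05). ID1 is a short gene at chr20:31605283-31606515 on the plus strand.

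ID3 did not pass the test with SCH772984. Its level was 211, 207 and 209 CPM with DMSO, 210, 157 and 174 CPM with compound 1, and 189, 184 and 240 CPM with SCH772984. The groups overlapped, with SCH772984 replicate 3 above and the other two SCH772984 libraries below every DMSO library. The log2 fold change was -0.01 ± 0.071 SE (95% interval -0.156 to 0.133, adjusted p = 0.893), and its sign followed the scaling, becoming 0.16 (adjusted p = 0.0409) with library size alone. Without SCH772984 replicate 3, ID3 was lower by a log2 fold change of -0.14 (adjusted p = 0.0354). ID3 lies at chr1:23557918-23559794 on the minus strand.

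ID4 was close to absent from the counts. It had 0, 1 and 0 counts with DMSO, 0 in all 3 libraries with compound 1, and 1, 0 and 1 with SCH772984. All values are under the 3 counts that a count of 0 allows, equal to 0.202 to 0.334 CPM depending on the library, so no change was detectable at this depth and no fold is given. ID4 lies at chr6:19837386-19840684 on the plus strand.

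The share of ID2 within the ID family was higher with SCH772984, and those of ID1 and ID3 were lower although the level of ID1 rose. ID2 made up 7.43% ± 0.624 (SD, n = 3) of the summed per-length level of ID1 to ID4 with DMSO and 27.3% ± 2.16 with SCH772984. ID1 went from 56.7% ± 1.09 to 48.4% ± 1.11 and ID3 from 35.9% ± 0.467 to 24.3% ± 1.21. None of these 3 shares overlapped between the groups, and each gave p = 0.1 in a two-sided exact permutation test, the smallest that 3 against 3 libraries allow. The ratio of ID1 to ID2 per length was 6.87 to 8.44 in the DMSO libraries and 1.64 to 1.99 with SCH772984. Such shares within a library do not depend on the scaling between libraries.

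**Figure D2:**
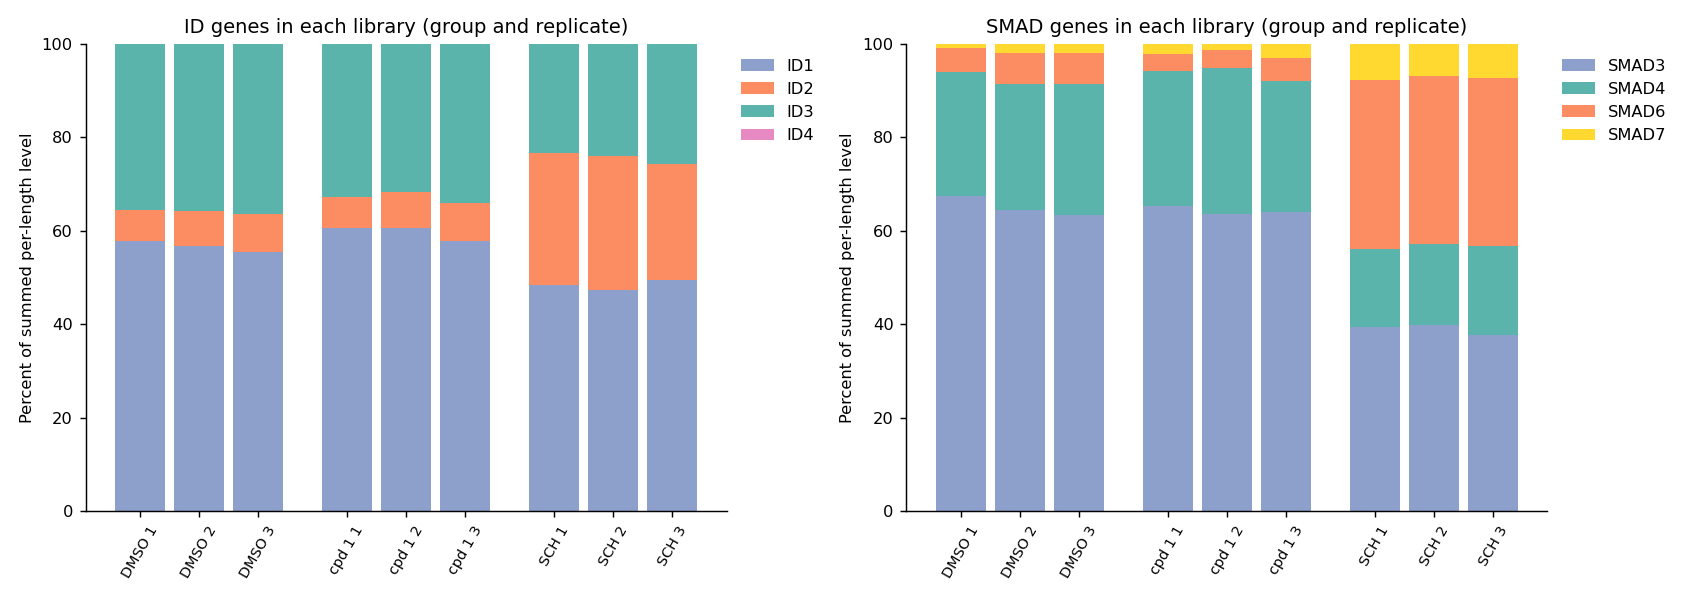
Stacked bars give, for each library, the percent of the summed per-length level (FPKM) held by each ID gene (left) and by each of 4 SMAD genes (right). The ID2 segment and the SMAD6 and SMAD7 segments are wider in the 3 SCH772984 libraries than in the other 6.

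SMAD3, the receptor-regulated SMAD that carries TGF-β and activin signals, was the only member called lower with SCH772984 than with DMSO. It was measured at 109, 105 and 101 CPM with DMSO, 91.2, 97.0 and 97.9 CPM with compound 1, and 89.9, 86.2 and 84.2 CPM with SCH772984. The 3 groups did not overlap, with DMSO highest and SCH772984 lowest. The log2 fold change with SCH772984 was -0.25 ± 0.070 SE (adjusted p = 0.00128), which is small, and with library size alone it was -0.08 and no longer passed (adjusted p = 0.294). SMAD3 lies at chr15:67063763-67195195 on the plus strand and shares exonic bases with an antisense gene that had at most 3 counts.

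SMAD4, the common partner of receptor-regulated SMADs and a frequent target of inactivation in pancreatic cancer, was detected in all libraries. It was measured at 61.5, 63.0 and 64.4 CPM with DMSO, 57.8, 68.8 and 61.6 CPM with compound 1, and 54.6, 53.8 and 60.9 CPM with SCH772984. The SCH772984 libraries lay just below the DMSO libraries, yet the log2 fold change of -0.14 ± 0.078 SE did not pass (95% interval -0.292 to 0.022, adjusted p = 0.116). It was 0.04 with library size alone and -0.19 without SCH772984 replicate 3, where it passed (adjusted p = 0.0305). SMAD4 lies at chr18:51028394-51085045 on the plus strand.

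SMAD6, an inhibitory SMAD best known for blocking BMP signals, rose more than any other member. It had 77, 92 and 91 counts with DMSO (7.94, 10.2 and 10.0 CPM), 46, 52 and 68 with compound 1 (4.90, 5.46 and 7.06 CPM), and 939, 889 and 1121 with SCH772984 (77.7, 72.6 and 75.6 CPM). The 3 groups did not overlap. The rise with SCH772984 was 8.13-fold (log2 fold change 3.02 ± 0.104 SE, adjusted p = 3.00e-28). SMAD6 lies at chr15:66702228-66782848 on the plus strand.

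SMAD7, which blocks both TGF-β and BMP receptors, rose from a much lower level. It had 7, 16 and 15 counts with DMSO, 15, 10 and 25 with compound 1, and 117, 101 and 133 with SCH772984, which corresponds to 0.722 to 1.78, 1.05 to 2.60 and 8.25 to 9.68 CPM. All SCH772984 libraries lay above all others, and the other groups overlapped. The rise was 6.58-fold (log2 fold change 2.72 ± 0.255 SE, adjusted p = 5.42e-13), with the widest error of the 8 members because few reads were counted. SMAD7 lies at chr18:48919853-48952052 on the minus strand.

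Together SMAD6 and SMAD7 held 7.77% ± 1.49 (SD, n = 3) of the summed per-length level of SMAD3, SMAD4, SMAD6 and SMAD7 with DMSO, and 43.3% ± 0.600 with SCH772984. The groups did not overlap, and the two-sided exact permutation test gave p = 0.1, its smallest value. SMAD4 was at 4.01 to 5.05 times the per-length level of SMAD6 in the DMSO libraries and at 0.459 to 0.526 times with SCH772984. SMAD6 stayed above SMAD7 in every library, at 3.38 to 6.46 times its level with DMSO, 1.60 to 3.06 times with compound 1 and 4.72 to 5.17 times with SCH772984.

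Of the type II receptors, BMPR2 was readily detected and TGFBR2 was not. BMPR2, which binds BMP ligands, was at 48.2, 47.9 and 49.3 CPM with DMSO, 36.0, 50.7 and 42.6 CPM with compound 1, and 95.3, 91.2 and 85.7 CPM with SCH772984. All SCH772984 libraries lay above all others, and the rise over DMSO was 1.90-fold (log2 fold change 0.92 ± 0.077 SE, adjusted p = 1.33e-14). TGFBR2, which binds TGF-β ligands, had 1, 0 and 0 counts with DMSO, 0, 0 and 1 with compound 1, and 0, 2 and 1 with SCH772984. No change of TGFBR2 was detectable at this depth. BMPR2 lies at chr2:202376936-202567751 and TGFBR2 at chr3:30606502-30694142, both on the plus strand.

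Cell markers were read beside these rises. Of 4 tested keratin and mesenchymal markers, 3 were lower with SCH772984, with a median log2 fold change of -0.96 over the 4. Of the leukocyte, islet and acinar lists, all 4, all 4 and 4 of 5 genes had at most 3 counts in any library. The summed fibroblast markers went from 462 to 510 CPM with DMSO to 994 to 1117 CPM with SCH772984. Nearly all of the DMSO sum was COL1A2 (461 to 510 CPM). Of the list, 3 of 5 rose (COL1A1, COL1A2 and PDGFRB), but DCN and LUM had at most 3 counts. The summed endothelial markers, with DMSO mainly CDH5 (2.89 to 4.45 CPM), went from 2.89 to 4.53 CPM down to 0 to 0.539 CPM. PECAM1 had at most 3 counts throughout. With compound 1 the endothelial sum was 6.23 to 6.71 CPM. The part of these markers in the result was not tested, and in bulk RNA fewer cells of a type and less RNA per cell cannot be told apart.

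With compound 1, 0 of the 8 tested members passed against the same DMSO libraries (edgeR's quasi-likelihood fit, adjusted p under 0.05), where 0.864% of 12849 tested genes did, 0.49% higher and 0.374% lower. DESeq2 on the same genes also called 0 members, where it called 2.36% of the genes that it gave an adjusted p. At an unadjusted p under 0.05, 2 of the 8 members were lower and 0 higher, beside 7.69% and 7.35% of all tested genes (15% in either direction). SMAD6 was below DMSO in all 3 libraries, with a log2 fold change of -0.67 ± 0.191 SE (unadjusted p = 0.00294, adjusted p = 0.108). The call depended on the fit. The adjusted p of SMAD6 was 0.0356 with all 9 libraries in the same fit, which called 1.35% of all genes. It was 0.0398 without a filter on low counts, where 1.61% were called. ID3 had a log2 fold change of -0.20 ± 0.089 SE (unadjusted p = 0.0425, adjusted p = 0.31). Without compound 1 replicate 1, the library that stood apart, ID3 was lower at -0.32 ± 0.059 SE (adjusted p = 0.000229), in a fit that called 9.56% of all genes. With each library left out in turn, the log2 fold change of ID3 went from -0.324 to -0.107.

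The other members with compound 1 had intervals around 0. The log2 fold change was 0.01 for ID1 (95% interval -0.189 to 0.200), -0.08 for ID2 (-0.268 to 0.116), 0.01 for SMAD4 (-0.175 to 0.199) and -0.15 for BMPR2 (-0.389 to 0.085). SMAD3 did not overlap between the groups, as 21.4% of all tested genes did not (12.1% with compound 1 below), with a log2 fold change of -0.12 (95% interval -0.283 to 0.039, adjusted p = 0.49). For SMAD7 the interval was wide, from -0.532 to 1.26 around 0.36. ID2 held 7.46% ± 0.832 (SD, n = 3) of the ID family with compound 1, against 7.43% with DMSO (two-sided exact permutation p = 0.9), ID1 held 59.7% ± 1.60 against 56.7% (p = 0.1, without overlap) and ID3 held 32.8% ± 1.13 against 35.9% (p = 0.1, without overlap). SMAD6 and SMAD7 held 6.29% ± 1.52 of the 4 SMAD genes (exact permutation p = 0.2).

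A direct fit of SCH772984 against compound 1 called 5 of 8 members higher with SCH772984 and 0 lower, where 66.3% of 13863 tested genes were called, with 33.7% of all tested genes higher and 32.6% lower. SMAD6 differed most, at 13.1-fold (log2 fold change 3.71 ± 0.133 SE, adjusted p = 5.33e-15). ID2 differed by 2.50 ± 0.088 SE on the log2 scale (adjusted p = 4.38e-15), SMAD7 by 2.36 ± 0.258 (adjusted p = 8.3e-08) and BMPR2 by 1.09 ± 0.113 (adjusted p = 3.97e-08). These 4 genes lay higher with SCH772984 in every library, and SMAD3 lay lower, so that 5 of 8 members did not overlap, against 69.3% of all tested genes. ID1 overlapped and differed by 0.32 ± 0.104 SE (adjusted p = 0.0102), a call that was lost without compound 1 replicate 2 (adjusted p = 0.0556), compound 1 replicate 3 (adjusted p = 0.116) or SCH772984 replicate 3 (adjusted p = 0.0866). ID3 (0.19, adjusted p = 0.118), SMAD3 (-0.12, adjusted p = 0.23) and SMAD4 (-0.14, adjusted p = 0.221) did not pass, but ID3 passed at 0.33 with library size alone (adjusted p = 0.0105), at 0.27 with at least 10 counts in every library (adjusted p = 0.0399) and at 0.32 without compound 1 replicate 1 (adjusted p = 0.0012).

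**Figure D3:**
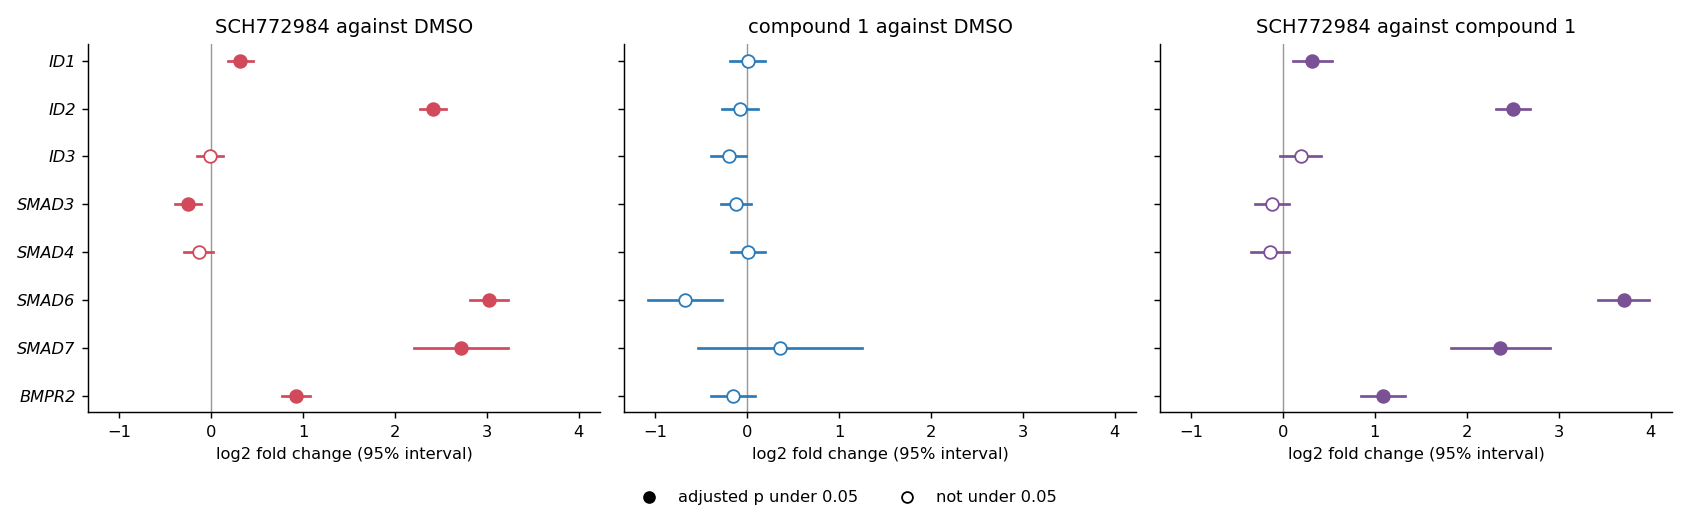
Points give the log2 fold change of each of the 8 tested members in 3 comparisons, with 95% intervals as bars and filled points where the adjusted p is under 0.05. SMAD6, SMAD7, ID2 and BMPR2 lie well to the right of 0 in both comparisons with SCH772984, and no compound 1 point is filled.

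The sequence just upstream of the start is shown for 3 members that rose with SCH772984, since each has a single start in RefSeq (GRCh38.p14). The rises differed in size, at 1.25-fold for ID1, 8.13-fold for SMAD6 and 1.90-fold for BMPR2. RefSeq promoters were found for all 10 members, at 17 starts in all. Each sequence is the 250 bases before the start on the plus strand, at chr20:31605039-31605288 for ID1, chr15:66701986-66702235 for SMAD6 and chr2:202376077-202376326 for BMPR2. In GENCODE release 29, no exon of another gene reaches these windows and at most 8 of their bases are exonic. The BMPR2 window does not reach the GENCODE start of BMPR2 at chr2:202376936, since RefSeq places the start further upstream. Capitals mark GGCGCC, a BMP-type SMAD element, CAGAC, a SMAD box, and CCAAT, on either strand.
ID1: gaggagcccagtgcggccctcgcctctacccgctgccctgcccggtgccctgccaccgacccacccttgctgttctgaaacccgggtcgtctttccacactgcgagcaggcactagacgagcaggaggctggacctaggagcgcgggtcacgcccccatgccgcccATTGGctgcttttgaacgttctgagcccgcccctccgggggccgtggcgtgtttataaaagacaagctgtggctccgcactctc
SMAD6: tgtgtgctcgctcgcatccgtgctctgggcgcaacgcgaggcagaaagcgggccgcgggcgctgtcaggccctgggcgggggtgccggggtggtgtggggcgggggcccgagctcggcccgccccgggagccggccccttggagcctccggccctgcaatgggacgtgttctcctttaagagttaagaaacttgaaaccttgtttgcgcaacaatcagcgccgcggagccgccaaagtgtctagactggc
BMPR2: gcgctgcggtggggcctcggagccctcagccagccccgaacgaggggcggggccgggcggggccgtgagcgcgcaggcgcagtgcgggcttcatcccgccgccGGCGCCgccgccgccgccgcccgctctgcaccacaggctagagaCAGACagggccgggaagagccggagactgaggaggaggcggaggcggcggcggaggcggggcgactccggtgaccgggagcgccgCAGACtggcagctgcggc

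Among 35116 RefSeq promoter windows of the same length, GGCGCC was found in 16.4%, CAGAC in 38.0% and CCAAT in 32.0%. The BMPR2 window held GGCGCC 1 time and CAGAC 2 times, the ID1 window held CCAAT 1 time, and the SMAD6 window held none of the 3. The ID2 window, most of which is exonic in GENCODE and is not printed, held CCAAT 3 times and neither of the other motifs. Among the other members, GGCGCC was found at SMAD4 and at 1 of 5 SMAD3 starts, CAGAC at ID3, ID4, 2 of 5 SMAD3 starts and 2 of 3 SMAD7 starts, and CCAAT at ID4, SMAD4, 1 of 5 SMAD3 starts and both TGFBR2 starts. TGACTCA, the AP-1 site, was in 4.2% of all windows and in none of these 4, and the E-box CANNTG was in 61.8% of all windows, in the ID2 and BMPR2 windows and not in those of ID1 and SMAD6. The G and C content was 66.0% for ID1, 69.2% for ID2, 68.0% for SMAD6 and 79.2% for BMPR2, against a median of 58.0%. A match is only a run of letters, and its absence says only that these letters are not in this window.

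The other genes of the pathway were read from lists of 101 genes, of which 62 could be tested with SCH772984. Of these, 23 were higher, 26 were lower and 13 did not pass, where 37.2% of all tested genes were higher and 35.5% lower, with a median log2 fold change of -0.06 against 0.03 for all tested genes. The counts list by list are a description, and nothing particular to the pathway is read from them. Each pathway gene given with a fold change for SCH772984 passed the test. Of the 4 receptor-regulated SMADs other than SMAD3, 2 were higher and 2 lower. SMAD9, a BMP-type SMAD, rose 7.09-fold (2.65 to 3.89 CPM with DMSO and 20.5 to 24.1 CPM with SCH772984, log2 fold change 2.83 ± 0.171 SE), and SMAD1, also of the BMP branch, rose by 0.32 on the log2 scale with overlapping libraries. SMAD2, of the TGF-β branch, had a log2 fold change of -0.41 and SMAD5, of the BMP branch, of -0.29.

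Of 10 tested receptors and co-receptors, 5 were higher and 3 lower. BMPR1A, a type I receptor for BMPs, rose 2.01-fold, from 53.9 to 62.4 CPM with DMSO to 112 to 119 CPM with SCH772984. ACVR2A, a type II receptor for activins, had a log2 fold change of 0.74, with exons that overlap ORC4 on the other strand. RGMB, a BMP co-receptor, fell by 1.95 on the log2 scale, with an antisense gene over its exons, and ACVR1, a type I receptor, fell by 0.82. BMPR1A acts in the same receptor complexes as BMPR2, which rose 1.90-fold.

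Ligands were split, with 4 of 12 tested higher and 4 lower. TGFB3 rose 5.57-fold, from 3.00 to 4.23 CPM to 19.1 to 19.6 CPM, and BMP8B had a log2 fold change of 0.83. TGFB1 had a log2 fold change of -0.55 and BMP7 of -0.19. Because BMP8B shares exonic bases with PPIE and TGFB1 with HNRNPUL1 on the other strand, and the strand setting of the counting is not given, these 2 values are uncertain. BMP6, named after its value was seen, fell by 3.39 on the log2 scale, from 7.18 to 8.56 CPM to 0.653 to 0.809 CPM.

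Of 5 tested antagonists outside the cell or at the membrane, 3 were higher and 2 lower. NOG, which encodes the secreted BMP antagonist noggin, was 12.0-fold lower, going from 71.9 to 78.2 CPM with DMSO to 5.95 to 6.37 CPM with SCH772984 (log2 fold change -3.59 ± 0.106 SE). CHRD, which encodes the BMP antagonist chordin, moved the opposite way and rose 5.64-fold to 9.10 to 10.9 CPM. BAMBI, a pseudoreceptor that is itself induced by BMP signals, rose 3.30-fold. NBL1, a further secreted BMP antagonist, had a log2 fold change of -0.76, with exons shared with the read-through gene MINOS1-NBL1.

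Among 14 tested intracellular regulators, 4 were higher and 7 lower. TOB1 rose 2.89-fold and NEDD4L, a ubiquitin ligase that targets activated SMAD2 and SMAD3, had a log2 fold change of 0.49. PMEPA1, a TGF-β-induced inhibitor of the pathway, had a log2 fold change of -1.84 and TGIF1, a SMAD corepressor, of -0.85. Of 14 tested target genes, 4 were higher and 6 lower. SNAI2 rose by 2.00 and JUNB by 0.71 on the log2 scale, the latter with exons that overlap HOOK2, whereas LTBP2 had a log2 fold change of -2.53 and TGFBI of -2.15.

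Of the E proteins that ID proteins bind, TCF3 fell from 281 to 310 CPM with DMSO to 182 to 210 CPM with SCH772984 (log2 fold change -0.61 ± 0.064 SE). TCF12 rose by 0.19 on the log2 scale (adjusted p = 0.0258), and TCF4 had 0 counts in all libraries. Of 9 tissue-specific helix-loop-helix partners of E proteins, only 1 had enough counts to be tested, and it was lower.

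With compound 1, 60 of the 101 pathway genes could be tested and 0 passed at an adjusted p under 0.05, with a median of 0.003 on the log2 scale. At an unadjusted p under 0.05, 4 were higher and 7 lower, or 11 of 60, where 15% of all tested genes were called. DESeq2 called 1 after adjustment (NEDD4L, lower), where it called 2.36% of the genes that it gave an adjusted p. Without compound 1 replicate 1, 1 pathway gene was higher (JUNB, log2 fold change 0.38) and 4 were lower, namely ENG (-0.37), NEDD4L (-0.43), TGFBR3 (-0.28) and TCF3 (-0.20), in the fit that called 9.56% of all genes. In the direct fit, 22 of 60 pathway genes were higher with SCH772984 than with compound 1 and 23 were lower, where 33.7% of all tested genes were higher and 32.6% lower.

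**Figure D4:**
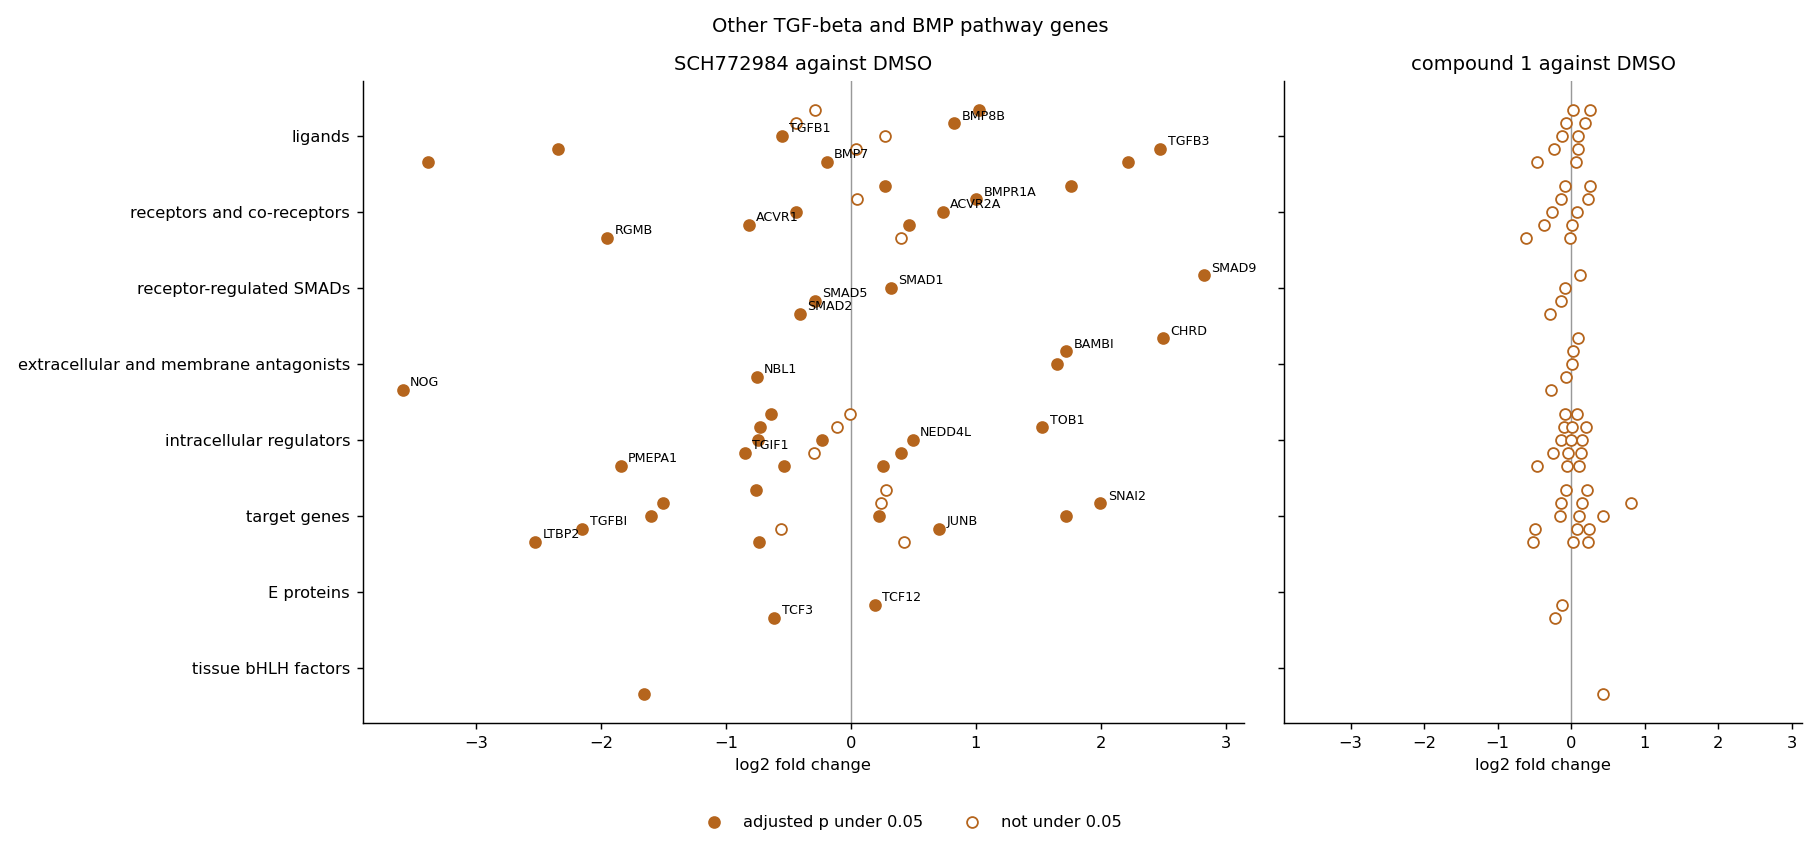
Each point is a tested gene of a pathway list, placed by its log2 fold change against DMSO, with SCH772984 on the left and compound 1 on the right, and filled where the adjusted p is under 0.05. Points spread from NOG at -3.59 to SMAD9 at 2.83 with SCH772984, whereas no compound 1 point is filled.

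The genes with the pattern most like that of SMAD6 over the 9 libraries, by the root mean square difference of centred log2 CPM among 9956 protein-coding genes, were ADCY5 (difference 0.146), LRP1 (0.298) and UPK3B (0.307). Their log2 levels with SCH772984 were 2.90, 3.07 and 3.31 above DMSO, against 2.98 for SMAD6 on the same scale. The nearest to SMAD3 were GALNT10 (difference 0.036), ABCB10 (0.039) and EIF3L (0.039), all lower by about as little as SMAD3. These distances are a description of 9 libraries that mainly differ by group.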

How the data were processed

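RNA was extracted from MIA PaCa-2 cells and sequenced by Novogene, with 3 libraries per group. The authors deposited raw read counts per gene, without normalization. The submitters' processing notes name HISAT2 2.0.5, featureCounts 1.5.0-p3 and hg38, and the strand setting is not given in the sources used here. All 58735 gene positions and lengths equal GENCODE release 29. Counts were normalized by TMM and tested over all genes with edgeR 4.0.16 in R 4.3.3 (filterByExpr, minimum count 10, minimum total count 15, robust quasi-likelihood F test, Benjamini-Hochberg adjustment, threshold 0.05). Each comparison had a fit of its own, and both inhibitors share the DMSO libraries. SE is the absolute log2 fold change over the square root of F. CPM and FPKM were computed from the counts. Shares were compared by two-sided exact permutation tests over libraries (scipy). The 95% intervals of fold changes include the spread between libraries, and the floor of 3 counts covers counting error only.

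Data were simulated from the DMSO levels with 1 dispersion for all genes, at the library totals of SCH772984 and DMSO. There, 94.5% of 199 genes changed by 1 on the log2 scale were called, among 12901 tested. In the real comparison 72.8% of genes were called, so that percent does not describe it, nor low-count members such as SMAD7. The members and lists were chosen with earlier results of these data known. All 10 members were named. From each pathway list the 2 largest rises and 2 largest falls with SCH772984 were named (adjusted p under 0.05, at least 5 CPM), with any listed gene called with compound 1, and the 3 genes most like the members that rose and fell most. Alternatives changed the scaling (library size, RLE), the filter (none, 10 or more counts per library, coding genes), the model (replicate block, a joint fit of the 9 libraries, DESeq2 1.42.0), the threshold (unadjusted, 2-fold) or left out a library, and shares were also taken from raw counts. Protein sequences were not used here. A gene of the target list is not reported here.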

Additional observations from a re-analysis of the deposited data

How the results depend on the processing

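Of the members' log2 fold changes recomputed under the alternatives, 102 of 111 for SCH772984 against DMSO, 98 of 110 for compound 1 against DMSO and 105 of 112 for the direct comparison kept their direction and their side of the threshold. With SCH772984, ID1, ID2, SMAD6, SMAD7 and BMPR2 were called higher under every alternative run, except ID1 and BMPR2 under the 2-fold rule. SMAD7 had no value against DMSO with at least 10 counts in every library, since DMSO replicate 1 had 7. With library size alone, ID3 (log2 fold change 0.163) and SMAD4 (0.0396) turned positive, SMAD3 (-0.0798) no longer passed and 0 members were lower. ID3 was also above 0 with at least 10 counts in every library (0.0683) and with protein-coding genes only (0.0376). With a change of at least 2-fold, 3 members were higher and 0 lower, and 12 pathway genes were higher and 10 lower. Of all tested genes, 18.2% were higher and 10.6% lower by that rule. In the direct comparison the 2-fold rule gave 11 higher and 11 lower pathway genes, and library size alone turned SMAD3 to 0.0131. The share of all genes at 2-fold is not given for the direct comparison, so nothing is read from those counts.

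With compound 1, 2 members and 7 pathway genes were lower and 4 pathway genes higher at an unadjusted p, 1 member, 2 pathway genes and 1 pathway gene without a filter on low counts (1.61% of all genes called), and 1 member and 1 pathway gene were lower with all 9 libraries in one fit (1.35%). DESeq2, which called 2.36% of the genes that it gave an adjusted p, called 1 pathway gene lower, NEDD4L. The member was SMAD6. ID1 was at -0.00413 without the filter, and the cause was not tested for any of these.

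With each library left out in turn, 1 to 3 members were lower with SCH772984 and 0 to 1 with compound 1, where 0 to 1 pathway genes were higher and 0 to 4 lower, the upper ends without SCH772984 replicate 3 and without compound 1 replicate 1. These fits called 67.2% to 71.2% of all genes for SCH772984 against DMSO. For compound 1 against DMSO, the fit without compound 1 replicate 1 called 9.56%. The log2 fold change of ID3 with SCH772984 went from -0.138 to 0.0398 (0.0319 without SCH772984 replicate 1). With compound 1, ID1 went from -0.137 to 0.0717 (-0.00303 and -0.0186 without DMSO replicates 2 and 3), SMAD4 from -0.0609 to 0.0632 (-0.00724 without DMSO replicate 1) and SMAD7 from -0.0413 to 0.622. The difference in the ID2 share between compound 1 and DMSO went from -0.314 to 0.495 points (-0.0811 without compound 1 replicate 2 and -0.261 without DMSO replicate 1). In the direct comparison 4 to 6 members were higher, in fits that called 60% to 65.4% of all genes.

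Shares of raw counts, without division by gene length, moved the differences from DMSO and from compound 1 with SCH772984 to -9.91 and -12.9 points for ID1, 25.9 and 25.8 for ID2, -16.0 and -12.8 for ID3 and 31.0 and 32.5 for SMAD6 with SMAD7.

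The labels give same-numbered libraries only a number in common. The correlation of their deviations from the group means was -0.031 to 0.054 between SCH772984 and DMSO. It was -0.029 to 0.214 between compound 1 and DMSO and -0.143 to 0.241 between SCH772984 and compound 1. In these comparisons 0, 1 and 1 of 3 libraries correlated best with their own number. So few libraries cannot decide whether the numbers mark a pairing. With the replicate number as a block, SMAD6 was lower with compound 1 (-0.682, adjusted p = 0.0382), and 1 pathway gene was higher and 2 were lower. That fit called 3.21% of all genes, against 0.864% in the main fit. ID1 was at -0.00368 there, and no call for a member changed in the other comparisons. Depth limited ID4 and TGFBR2, which had too few counts for any comparison, and SMAD7, whose counts in DMSO and compound 1 were at most 25.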
